A study of Mus musculus with 24 samples.

Results

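Blood clotting and complement proteins are made mainly by hepatocytes, the parenchymal cells of the liver, and this account follows 10 of their genes in 24 liver libraries: Fga, Fgb and Fgg (the chains of fibrinogen), F2 (prothrombin), F9 (coagulation factor IX), Proc (the anticoagulant protein C), Serpinc1 (antithrombin), Vtn (vitronectin), C8a (a chain of complement component C8) and C1s1 (a protease of the complement C1 complex). The genes were listed by name and not by a rule on their values, but with earlier results of these data known. They are 10 of the 35974 gene symbols of the deposited table. Tests were limited to the 4875 symbols that reached a deposited value of 1 in 4 libraries or more, and all 10 genes were among them. Fgg reached it in 5 libraries, 3 of them outside TGA class 2, so it passed only through that group. In comparisons with TGA class 2 its values, and the member counts and medians that include it, are a description. The libraries came from liver of C3H/HeJ mice, 12 of wild-type animals (WT) and 12 of transgenic ones (TGA). The transgene, its promoter, the cell type that carries it, and the age and sex of the animals are not named in the labels. Library titles also carry a replicate number (1 to 4) and an ending, which is 2, 4 or 8. That ending is called class here, since the labels do not explain it, and a reading as hepatocyte DNA content rests on the title of the series. The 6 groups of genotype and class hold 4 libraries each. It is not stated that libraries of a group came from separate animals, so each p-value measures the spread between libraries, which may be technical.

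Clotting runs through a cascade of serine proteases that circulate as inactive precursors. Prothrombin, factor IX and protein C carry carboxylated glutamates made with vitamin K, and thrombin, the active form of prothrombin, cuts fibrinogen so that it polymerises into fibrin. Antithrombin inhibits thrombin and other proteases of the cascade, and activated protein C shuts off its cofactors. Complement is a second protease cascade: C1s within the C1 complex starts its classical pathway, the C8 alpha chain is part of the pore that forms in target membranes, and vitronectin binds that complex and keeps it from inserting.

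Every value below is log2(normalised count + 1) unless another scale is named. No label names the unit, which was read from the values. They hold no read totals, so sequencing depth is unknown and counting error cannot be stated. Many zeros mark these libraries: from 1624 to 15147 symbols had a value above 0, and 3 libraries held 9096 or more, namely numbers 1 of WT class 2 and WT class 4 and number 3 of TGA class 8. Hepatocyte transcripts were present, with Apoa1 and Trf above 0 in 24 of 24 libraries and Alb in 19. These come from a list of 14 defining hepatocyte genes with uneven detection, Ttr being above 0 in 11 libraries. Over the 14 genes and 4 libraries of a group, values above 0 numbered from 26 in WT class 8 to 54 in TGA class 2. Of the 12 macrophage markers 0 could be tested, and of 12 endothelial markers 3. In bulk RNA, fewer cells of a type cannot be told apart from less RNA per cell. A value of 0 means only that a gene was listed at 0.

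The upstream regions of the fibrinogen genes are shown because these neighbouring genes on chromosome 3 gave unlike values, and that of C1s1 because it was the member that passed a test. Each run is the 250 bases before the RefSeq start, 5′ to 3′ on the gene's strand, from GRCm38.p6, a later build than the mm9 named in the submitters' processing notes. RefSeq windows were found for 9 of the 10 genes, the exception being Proc. Capitals mark matches, on either strand, to GTTAAT (a half-site of the hepatocyte factor HNF1), TTGCNNAA (a form of the C/EBP site) and CAAAGTC (a form of the HNF4 site). The windows are Fga at chr3:83025903-83026152, plus strand, Fgb at chr3:83049864-83050113, minus strand, Fgg at chr3:83007474-83007723, plus strand, and C1s1 at chr6:124542360-124542609, minus strand, for the more upstream of its pair of annotated starts.
Fga: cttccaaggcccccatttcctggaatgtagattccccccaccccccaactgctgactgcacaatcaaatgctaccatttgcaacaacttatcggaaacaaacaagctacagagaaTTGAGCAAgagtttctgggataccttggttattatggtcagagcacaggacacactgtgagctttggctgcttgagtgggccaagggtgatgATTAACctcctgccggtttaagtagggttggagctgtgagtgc
Fgb: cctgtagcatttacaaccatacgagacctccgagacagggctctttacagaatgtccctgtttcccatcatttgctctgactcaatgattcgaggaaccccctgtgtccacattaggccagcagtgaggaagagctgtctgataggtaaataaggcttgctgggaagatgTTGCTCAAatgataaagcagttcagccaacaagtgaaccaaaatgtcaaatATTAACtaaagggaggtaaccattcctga
Fgg: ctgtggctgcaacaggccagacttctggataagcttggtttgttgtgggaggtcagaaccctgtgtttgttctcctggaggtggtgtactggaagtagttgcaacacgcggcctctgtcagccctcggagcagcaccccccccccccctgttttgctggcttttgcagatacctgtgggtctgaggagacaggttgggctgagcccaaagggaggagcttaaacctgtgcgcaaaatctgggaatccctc
C1s1: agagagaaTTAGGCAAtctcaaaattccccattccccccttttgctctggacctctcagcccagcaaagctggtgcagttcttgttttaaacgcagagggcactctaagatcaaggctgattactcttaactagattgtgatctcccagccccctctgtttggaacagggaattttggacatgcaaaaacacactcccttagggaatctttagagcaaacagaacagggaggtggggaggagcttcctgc

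The Fga and Fgb windows each held a GTTAAT and a TTGCNNAA match, C1s1 held TTGCNNAA alone, and in Fgg none of the 3 motifs was found. Over the 9 genes with a window, GTTAAT was found in 4 (Fga, Fgb, Vtn and C8a), TTGCNNAA in 4 (Fga, Fgb, F9 and C1s1) and CAAAGTC in 1 (Vtn). Among all 32851 windows of this length in the table, 6.43%, 9.56% and 3.84% held them. The motifs searched do not overlap within these windows. A match of letters describes the sequence and says nothing of whether a factor binds there.

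Fga, the alpha chain of fibrinogen, was the most widely detected of the 10 genes, above 0 in 23 of 24 libraries. In WT it was 8.36, 6.88, 6.70 and 8.14 in class 2 (numbers 1 to 4), 8.50, 6.55, 0 and 6.43 in class 4, and 6.20, 6.05, 5.25 and 7.78 in class 8. In TGA it was 9.17, 8.54, 9.12 and 9.32 in class 2, 7.96, 7.94, 8.46 and 7.88 in class 4, and 7.55, 8.50, 7.76 and 9.78 in class 8. Within class 2 every TGA library lay above every WT library, while in classes 4 and 8 the genotypes overlapped.

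Fgb, the beta chain, was above 0 in 10 libraries and always together with Fga. In WT it was 5.80 in number 1 of class 2, 6.35 and 7.57 in numbers 1 and 2 of class 4, and 0 in the other 9 libraries. In TGA it was 4.16, 6.71, 5.70 and 5.98 in class 2, 0 in all 4 libraries of class 4, and 0, 5.82, 0.66 and 7.47 in class 8. TGA classes 2 and 4 therefore did not overlap for this chain. Fgg, the gamma chain, was above 0 in 8 libraries: 1.13 in 1 library of WT class 2, 0.63, 2.95 and 3.82 in WT class 4, 4.67 in 1 library of WT class 8, 5.89 and 1.54 in TGA class 2, and 0.97 in 1 library of TGA class 8. The 3.82 was the most frequent value above 0 in its library. Fgg was at 0 in all 4 libraries of TGA class 4.

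The chains were compared per length, as normalised count per kilobase of the longest coding transcript in GENCODE M21 (2.587 kb for Fga, 3.81 kb for Fgb and 1.741 kb for Fgg). How the authors' values weigh transcripts of different length is not given in the sources used here, so these ratios are approximate. In the 10 libraries with both Fga and Fgb above 0, Fga was higher in 9, by a median of 9.18-fold (0.719 to 548). In the 8 libraries with both Fga and Fgg above 0, Fga was higher in 8, by a median of 37.4-fold (1.80 to 446). In 13 libraries Fga was above 0 with Fgb at 0, and in 15 with Fgg at 0, while the reverse was seen in 0 libraries for either chain. Detection of the beta and gamma chains was thus nested within that of the alpha chain. This nesting is not particular to the chains, since Fga was above 0 in 23 of 24 libraries. F2, Proc, Serpinc1, Vtn and C1s1 were likewise above 0 without Fga in 0 libraries.

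**Figure D1:**
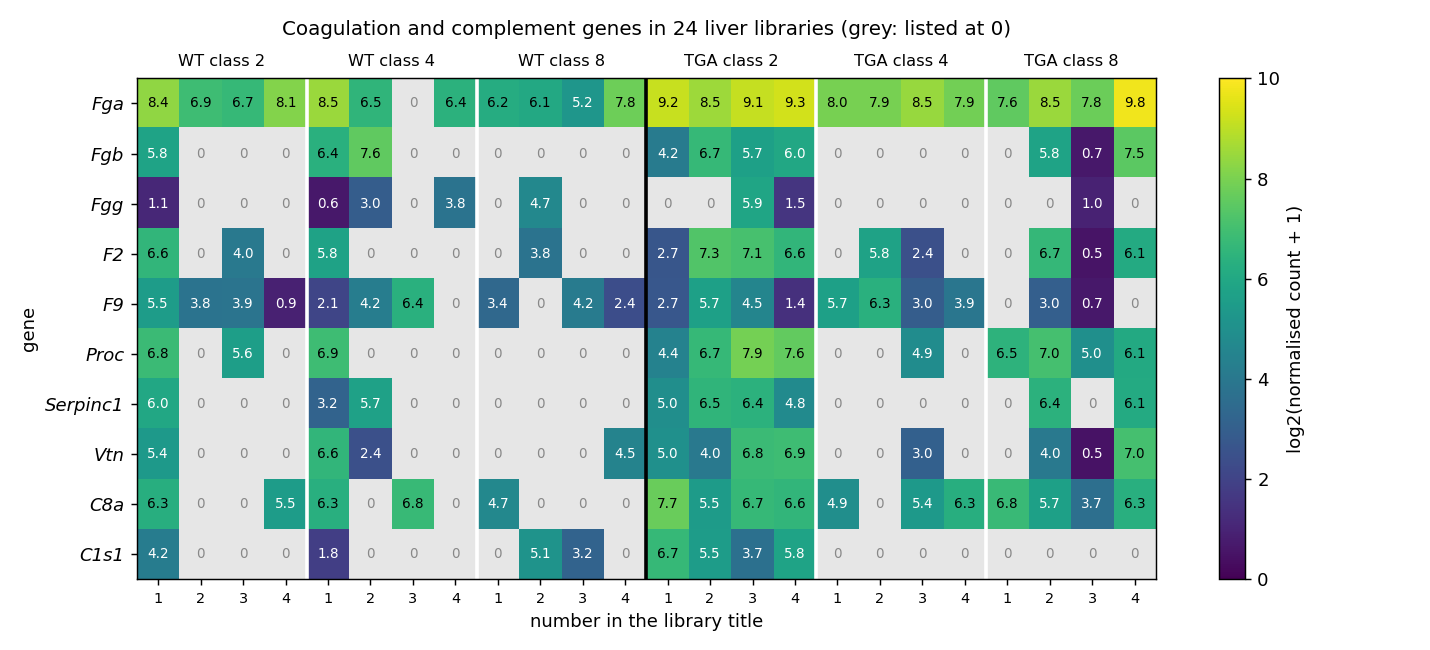
Values of the 10 genes (rows) in the 24 libraries (columns, by group and by the number in the title), as log2(normalised count + 1), with grey cells for genes listed at 0. The Fga row is filled in 23 of 24 libraries, the TGA class 2 block holds 38 of 40 values above 0, and the C1s1 row is at 0 throughout TGA classes 4 and 8.

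F2, the precursor of thrombin, was above 0 in 13 libraries. In WT it was 6.58 and 4.05 in numbers 1 and 3 of class 2, 5.77 in number 1 of class 4, 3.82 in number 2 of class 8 and 0 elsewhere. In TGA it was 2.69, 7.30, 7.10 and 6.60 in class 2, 0, 5.77, 2.44 and 0 in class 4, and 0, 6.66, 0.53 and 6.10 in class 8. All 4 TGA class 2 libraries were thus above 0, which held for none of the other 5 groups.

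F9, a protease that activates factor X, had a different profile. It was above 0 in 20 libraries: 5.53, 3.81, 3.86 and 0.93 in WT class 2, 2.08, 4.24, 6.36 and 0 in WT class 4, and 3.39, 0, 4.17 and 2.36 in WT class 8. In TGA it was 2.71, 5.69, 4.54 and 1.40 in class 2, 5.67, 6.34, 2.97 and 3.94 in class 4, and 0, 3.02, 0.66 and 0 in class 8. The 3.81 of WT class 2 and the 3.39 of WT class 8 were each the most frequent value above 0 in their library. TGA class 4 was not low for F9, and the groups overlapped throughout.

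Proc, the precursor of activated protein C, was above 0 in 3 of 12 WT libraries and 9 of 12 TGA libraries. The WT values were 6.81 and 5.60 in numbers 1 and 3 of class 2 and 6.90 in number 1 of class 4. In TGA it was 4.43, 6.71, 7.90 and 7.61 in class 2, 4.85 in number 3 of class 4 with the other 3 at 0, and 6.48, 7.05, 4.97 and 6.06 in class 8. In class 8 the genotypes did not overlap, all 4 WT libraries being at 0.

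Serpinc1, the gene of antithrombin, was above 0 in 9 libraries, in each of which Fgb was above 0 as well. It was 5.99 in number 1 of WT class 2, 3.18 and 5.73 in numbers 1 and 2 of WT class 4, 4.95, 6.55, 6.44 and 4.80 in TGA class 2, and 6.42 and 6.10 in numbers 2 and 4 of TGA class 8. In WT class 8 and in TGA class 4 it was at 0 in 4 of 4 libraries.

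Among the complement genes, C8a was above 0 in 16 libraries. In WT it was 6.27 and 5.52 in numbers 1 and 4 of class 2, 6.29 and 6.76 in numbers 1 and 3 of class 4, 4.66 in number 1 of class 8 and 0 in the rest. In TGA it was 7.71, 5.49, 6.72 and 6.60 in class 2, 4.94, 0, 5.41 and 6.25 in class 4, and 6.76, 5.68, 3.66 and 6.30 in class 8. A single TGA library of 12 was thus at 0, against 7 of 12 WT libraries.

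C1s1 was above 0 in 8 libraries. It was 6.72, 5.53, 3.68 and 5.81 in TGA class 2 and 0 in all 8 TGA libraries of classes 4 and 8. In WT it was 4.19 in number 1 of class 2, 1.84 in number 1 of class 4, and 5.15 and 3.17 in numbers 2 and 3 of class 8. The 3.17 was the most frequent value above 0 in its library. C1s2, a near copy of C1s1, was listed at 0 in all 24 libraries, and how reads that match both were counted is not given in the sources used here.

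Vtn was above 0 in 12 libraries: 5.42 in number 1 of WT class 2, 6.58 and 2.44 in numbers 1 and 2 of WT class 4, 4.46 in number 4 of WT class 8, 5.03, 4.05, 6.80 and 6.90 in TGA class 2, 3.05 in number 3 of TGA class 4, and 4.05, 0.48 and 7.05 in numbers 2 to 4 of TGA class 8. Like Fga, Fgb, Serpinc1 and C1s1, it separated TGA class 2 from TGA class 4 without overlap, as did 6.4% of tested genes with class 4 lower.

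**Figure D2:**
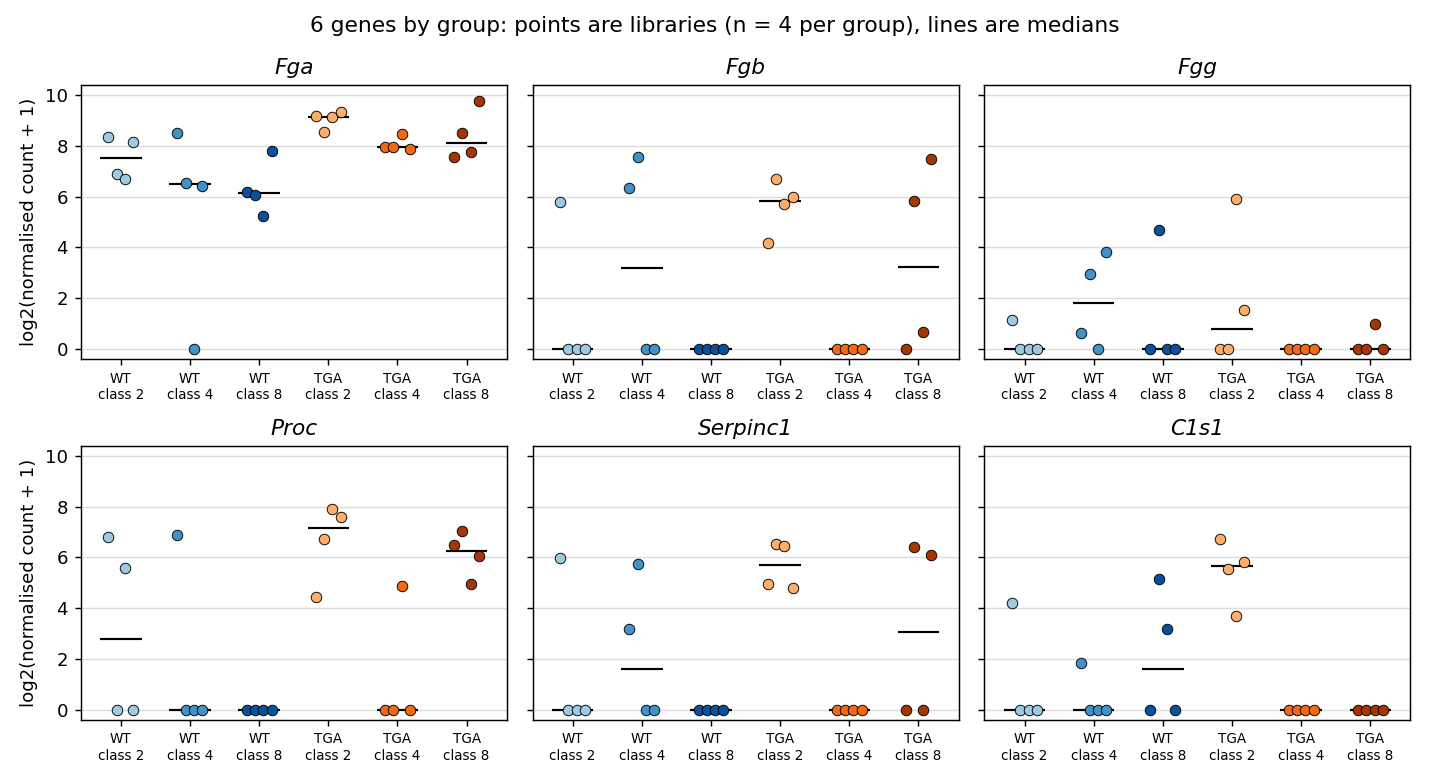
Library values of 6 of the genes by group, on the scale log2(normalised count + 1), with points for the 4 libraries of a group and a line at their median. Fgb, Serpinc1 and C1s1 are above 0 in all 4 libraries of TGA class 2 and at 0 in all 4 of TGA class 4, while Fga stays between 7.55 and 9.78 in every TGA library.

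Class 4 was compared with class 2 within TGA, which asks whether the genes differ between these classes of libraries. C1s1 fell, with a log2 difference of -5.44 (SE 1.29, limma adjusted p = 0.0442), and was the 1 member of 10 called. Over all tested genes 0.841% were called (41 of 4875, all lower in class 4). Serpinc1 differed by -5.69 (SE 1.55, adjusted p = 0.0599, limma), Fgb by -5.64 (SE 1.66, adjusted p = 0.0882) and Proc by -5.45 (SE 1.65, adjusted p = 0.0935), none past the threshold of 0.05. The other 6 had adjusted p between 0.124 and 0.757: Vtn at -4.93, F2 at -3.87, C8a at -2.48, Fgg at -1.86, Fga at -0.98 and F9 at 1.15, the 1 member with a higher mean in class 4. Without adjustment 6 members had p under 0.05, against 14.8% of tested genes. Groups were without overlap, class 4 lower, for 5 members (Fga, Fgb, Serpinc1, Vtn and C1s1), against 6.4% of tested genes. The median difference of the 10 members, Fgg among them, was -4.40, and that of all tested genes -0.32.

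The size of these differences depends on the number added before the log, since class 4 was at 0. For C1s1 it was -2.45 with 10 added in place of 1, and the call was then lost (adjusted p = 0.0663). It was also lost with no filter on low values (0.137), with the number of genes above 0 as a covariate (0.111), without any 1 of TGA numbers 1 to 4 (0.1002, 0.173, 0.119 and 0.107) and without WT number 2, 3 or 4 (0.0514, 0.0576 and 0.0611), libraries that enter only through the pooled spread and the set of genes tested. Without WT number 1, C1s1, Proc and Serpinc1 were called, beside 1.56% of the 4227 genes tested there.

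In WT this class comparison gave 0 members past the threshold (limma, 0 also at an unadjusted p under 0.05), where 0% of tested genes were called and 4.64% had an unadjusted p under 0.05. Here 5 members had higher and 5 lower means in class 4, from -2.15 (Fga) to 2.03 (Fgb). The difference between the genotypes' class effects was tested as an interaction, in which 0 members and 0% of tested genes passed. Unadjusted, 5 members had p under 0.05, against 6.34% of tested genes. The 2 with the smallest p were Fgb at -7.67 (SE 2.35, adjusted p = 0.767, limma) and Serpinc1 at -6.42 (SE 2.19, adjusted p = 0.767), and C1s1 had -4.85 (SE 1.83) with the same adjusted p. Over both genotypes 0 members passed, against 0.308% of tested genes, and 4 had an unadjusted p under 0.05, against 13.6%. In that average the members ran from -3.41 (Proc) to 0.39 (F9).

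**Figure D3:**
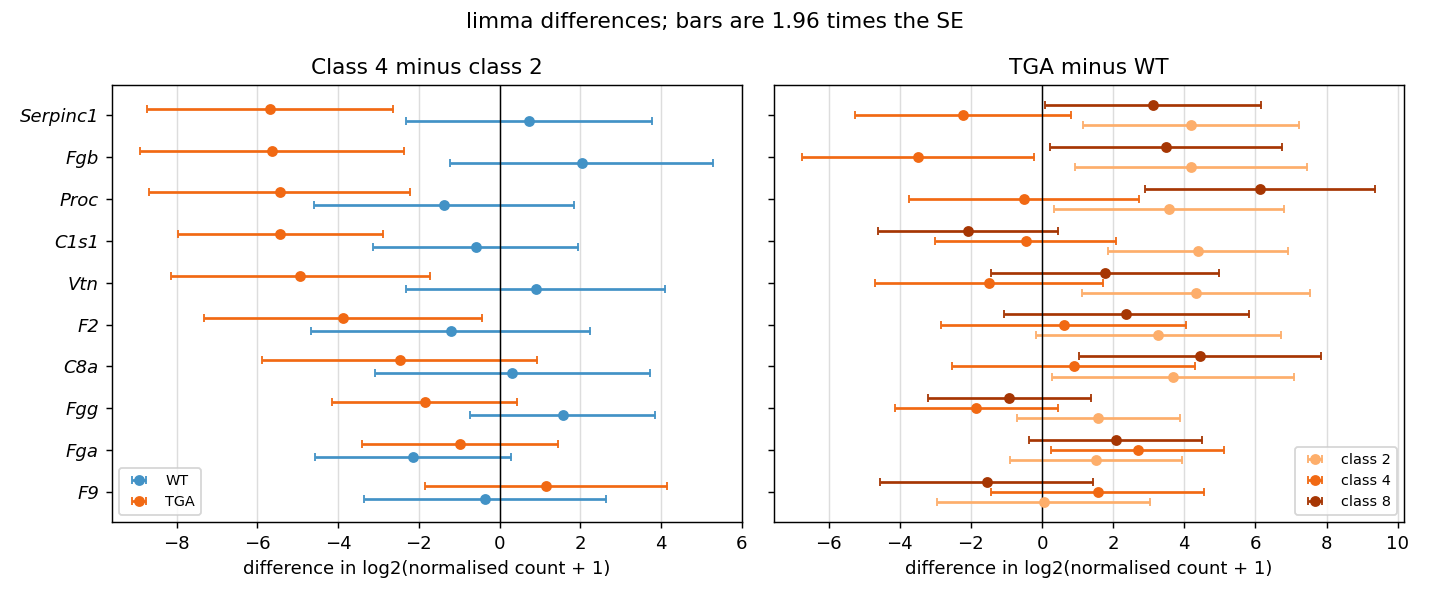
limma differences of the 10 genes in log2(normalised count + 1), with bars of 1.96 times the SE, for class 4 minus class 2 in each genotype (left) and for TGA minus WT in each class (right). On the left the TGA points run from -5.69 (Serpinc1) to 1.15 (F9) and the WT points from -2.15 to 2.03. On the right all 10 class 2 points lie above 0.

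The next comparison set class 8 against class 2. Within TGA it shares its class 2 libraries with the one above. In TGA 0 members were called (limma), as were 0% of tested genes, and 1 member had an unadjusted p under 0.05, against 7.14% of tested genes. That member was C1s1, at -5.44 (SE 1.29, adjusted p = 0.137), which was without overlap, as were 2.56% of tested genes with class 8 lower. All 10 members had lower means in class 8 of TGA, from -5.44 (C1s1) to -0.52 (Proc), with a median of -2.35 beside -0.10 for all tested genes. The 10 include Fgg, which passed the filter only through TGA class 2. In WT 0 members and 0% of tested genes were called, 0 members had an unadjusted p under 0.05, against 4.86% of tested genes, and the differences ran from -3.10 (Proc) to 1.03 (C1s1), the latter turning to -0.34 without WT number 2. The interaction gave 0 members and 0% of tested genes, with 1 member and 4.06% of tested genes at an unadjusted p under 0.05. That member was C1s1, at -6.47 (adjusted p of 0.999, limma). Over both genotypes 0 members were called, against 0.0205% of tested genes, and 1 had an unadjusted p under 0.05, against 7.36%.

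Between classes 8 and 4, 0 members were called in TGA, in WT, over both genotypes or in the interaction (limma), where 0% of tested genes passed in each. At an unadjusted p under 0.05 there were 4, 1, 1 and 3 members, against 7.77%, 4.57%, 6.58% and 4.68% of tested genes. Proc was without overlap in TGA, with all 4 class 8 libraries above all class 4 libraries, as were 1.17% of tested genes. Its difference was 4.92 (SE 1.65, adjusted p = 0.565, limma). F9 differed in the other direction, by -3.81 (SE 1.53, adjusted p = 0.590), with overlap. C1s1 had no difference to estimate here, being at 0 in all 8 libraries.

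The genotypes were compared within each class. In class 2 all 10 members had higher means in TGA, from 0.05 (F9, which turned to between -0.82 and -0.035 under 5 alternatives) to 4.39 (C1s1), with a median of 3.62 beside 0.15 for all tested genes. The 10 include Fgg, which passed the filter only through TGA class 2. Of the 10 members 0 were called (limma), against 0.103% of tested genes, while 6 had an unadjusted p under 0.05, against 8.72%. C1s1 had the smallest p (difference 4.39, SE 1.29, adjusted p = 0.283, limma), followed by Serpinc1 at 4.19 (SE 1.55, adjusted p = 0.434), Vtn at 4.34 (SE 1.64, adjusted p = 0.466) and Fgb at 4.19 (SE 1.66, adjusted p = 0.487). Without WT number 1, whose class 2 library held 15147 genes above 0 and all 10 members, C1s1 differed by 5.44 with an adjusted p of 0.0248 (limma), where 1.61% of 4227 genes were called. Fga was the 1 member without overlap, TGA higher, against 1.09% of tested genes, at a difference of 1.52 (SE 1.24, adjusted p = 0.750).

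In class 4 the members had both directions, with 4 higher and 6 lower in TGA. None was called (0 members, limma), against 0.0205% of tested genes, and 2 had an unadjusted p under 0.05, against 4.25%: Fga at 2.69, higher in TGA, and Fgb at -3.48, lower in TGA. In class 8, 7 members were higher in TGA and 0 were called (limma), against 0.0205% of tested genes, while 4 had an unadjusted p under 0.05, against 9.76%. Proc differed by 6.14 (SE 1.65, adjusted p = 0.150) and was the 1 member without overlap, against 1.62% of tested genes with TGA higher. C8a differed by 4.44 (SE 1.74, adjusted p = 0.406). Without the 4 libraries with the most genes above 0, Proc differed by 6.53 with an adjusted p of 0.0420 (limma), where 0.787% of 3939 genes were called.

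Over all classes, with the 3 libraries of each genotype and number averaged (4 values against 4), 9 members had higher means in TGA and 0 were called (limma), against 0.492% of tested genes. At an unadjusted p under 0.05 there were 4 members, against 8.88% of tested genes. Proc had means of 4.57, 0, 1.87 and 0 for WT numbers 1 to 4 and 3.64, 4.59, 5.91 and 4.56 for TGA (difference 3.06, SE 1.05, adjusted p = 0.279, limma). C8a had 5.74, 0, 2.25 and 1.84 against 6.47, 3.72, 5.27 and 6.38 (difference 3.002, SE 1.10, adjusted p = 0.328). For both, WT number 1 reached into the range of the TGA numbers. Fga had 7.69, 6.49, 3.98 and 7.45 against 8.23, 8.32, 8.45 and 8.99, without overlap, as had 0.944% of tested genes with TGA higher. Its difference was 2.10 (SE 0.87, adjusted p = 0.435, limma). A two-sided exact permutation of the 8 means gave Fga p = 0.0286, the smallest that 4 against 4 allows, and 0.0857 for Proc and for C8a, unadjusted among 10 such tests. F2 differed by 2.08 (SE 1.04, adjusted p = 0.546, limma). Without WT number 1 the calls were 2, Proc at 4.05 (adjusted p = 0.0218, limma) and C8a at 4.10 (adjusted p = 0.0249), in a fit that called 100 of 4227 genes (2.37%). Without the 4 libraries with the most genes above 0 it was 1 member, Proc, beside 97 of 3939 genes (2.46%).

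How many of the 10 genes were above 0 in a library differed between groups more than the detection of all tested genes did. In TGA class 2, 38 of 40 member values were above 0 (95%), beside 55.1% of the values of all tested genes. In WT class 2 it was 19 of 40 (47.5%), beside 54.9%, and 10 of the 19 came from number 1. This was not particular to the members. The 14 defining hepatocyte genes, over 4 libraries a group, also had the most values above 0 in TGA class 2, 54 against 26 to 41 in the other groups. For the members, the remaining groups had 20 of 40 in WT class 4 (50%, beside 48.8%) and 13 of 40 in WT class 8 (32.5%, beside 38.3%). It was 15 of 40 in TGA class 4 (37.5%, beside 32.7%) and 26 of 40 in TGA class 8 (65%, beside 45.4%).

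Libraries of like gene detection can be set side by side. Among the 6 libraries with 2600 to 2900 genes above 0, TGA class 2 number 1 (2816 genes) held 9 of the 10 members and TGA class 8 numbers 2 and 4 (2860 and 2717 genes) held 8 and 7. WT class 2 number 3 (2634 genes) held 4, and WT class 8 number 3 (2674 genes) and TGA class 4 number 4 (2867 genes) held 3 each. Detection still moved with the groups, with 2816 to 6468 genes above 0 in TGA class 2 and 1624 to 3440 in TGA class 4. In the latter, the most frequent value above 0 was 3.57, 4.44, 1.75 and 2.26. Of the 4 C1s1 values of TGA class 2, 3 exceeded the highest of these, as did 4 of 4 for Serpinc1 and 3 of 4 for Fgb. What detection contributes to the member differences was not tested beyond the fits with that covariate.

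**Figure D4:**
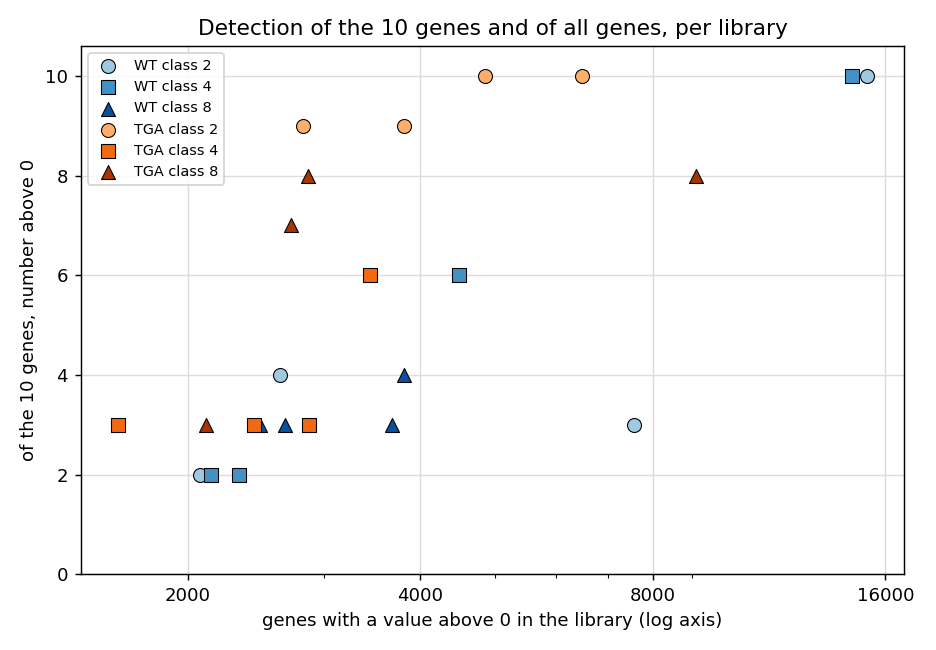
Number of the 10 genes above 0 (vertical axis) against the number of all genes above 0 (horizontal log axis) in each of 24 libraries, coloured by group. The TGA class 2 libraries sit at 9 or 10 members, and TGA class 4 at 3 to 6, and the WT libraries reach 10 only at 15147 and 14469 genes.

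Between TGA classes 2 and 4, hepatocyte transcripts in general moved with the members. The 14 defining hepatocyte genes had a summed level of 99.81 to 115.5 per library in TGA class 2 and 56.54 to 83.75 in TGA class 4, with 14 of 14 lower in class 4 (median difference -3.22). Of these 1 was called, Ttr, the carrier protein transthyretin (-6.69, limma adjusted p = 0.0479, lost under 11 alternatives). In WT class 2 the sum was 40.42 to 103.5. Between genotypes the list moved with the members in class 2, where 14 of 14 were higher in TGA (median 4.05) and 1 was called, Apoa1. Over all classes 14 of 14 were higher (median 1.88) and 4 were called (limma), namely Apoa1 (3.71), Alb (5.64), Cps1 (4.66) and Trf (1.61). In class 4 the list and the members differed. Of the list 11 were higher and 3 lower in TGA (median 0.73), while 4 members were higher and 6 lower (median -0.49). In class 8, 12 of the list were higher and 1 lower. In neither class was a gene of the list past the threshold. Macrophage markers (12, of which 4 were at 0 everywhere, including Vsig4 and Timd4) summed to 0 in each TGA class 2 library and to 0 to 4.93 in TGA class 4. Platelet and megakaryocyte markers (8, with Ppbp and Gp9 at 0 everywhere) summed to 0 to 1.25 and 0 to 6.30, and endothelial markers (12, with 2 at 0 everywhere) to 3.31 to 6.25 and 0 to 12.21. The part of these cells in the member differences was not tested.

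The wider pathway was taken from 8 lists of 95 coagulation and complement genes, of which 85 were not among the 10, 82 of these were in the table and 34 were tested. From TGA class 2 to class 4, 28 of the 34 had lower and 6 higher means, with a median of -1.62 beside -0.32 for all tested genes. A single one was called, Serping1, the C1 inhibitor that blocks C1s, with a log2 difference of -3.93 (SE 0.99) and a limma adjusted p of 0.0442. Serping1 reached the filter value in 7 libraries, only 3 of them outside TGA class 2, so it was tested only because of the group where it is high, and its call is given as a description. With Serping1 counted, this held for 8 of the 34 genes and for 876 of all 4875 tested genes. The others of the 8 were F7, Apoh, Vkorc1l1, C1ra, Masp1, Masp2 and C8g. Counts of lower or higher genes and their medians, between classes or genotypes, here and by role below, include them and are likewise a description. The Serping1 call was lost under the same alternatives as that of C1s1, with limma adjusted p from 0.0561 to 0.159. In WT 19 of the 34 were higher and 15 lower in class 4, with 0 called (limma) and a median of 0.08. TGA was higher than WT for 29 of 34 in class 2 and for 32 of 34 over all classes, with 0 called in either (limma) and medians of 1.98 and 1.001.

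By role, and with the members counted in their lists, the 11 tested procoagulant genes had a median difference between TGA classes 4 and 2 of -1.24, with 4 higher, 7 lower and 0 called. Kng1, the kininogen of the contact system, differed by -1.24 (0.40 without TGA number 3), F10, the factor that cleaves prothrombin, by -5.08 (adjusted p = 0.106, limma) and F12, the contact factor, by -1.44. The 5 tested anticoagulants had a median of -4.53, 4 of them lower and 0 called, with Pzp, a broad protease inhibitor, at -4.53, Proz, protein Z, at -4.21 and Apoh, which binds phospholipid, at 0.78. In fibrinolysis, Serpinf2, the plasmin inhibitor, was at -1.10 and Plg, plasminogen, at -1.84. For the vitamin K cycle and factor export the values were -5.82 for Furin, a proprotein convertase (limma adjusted p = 0.0599, and called under 5 alternatives at 0.0254 to 0.0411), -1.74 for Lman1, the cargo receptor of factors V and VIII, and -0.27 for Vkorc1l1.

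On the complement side, 8 of 10 tested initiation genes were lower in TGA class 4 than in class 2 and 1, C1s1, was called. C3, the central component, differed by -2.82, C4b by -6.05 (adjusted p = 0.104, limma) and Cfb, of the alternative pathway, by -2.14. All 4 tested terminal genes were lower with 0 called, C9 at -2.64, C8b at -2.23 and C8g at -1.52, the last pair encoding the other chains of C8. C8g passed the filter only through TGA class 2, as did C1ra, Masp1 and Masp2 among the initiation genes and Serping1 among the regulators. All 6 tested regulators were lower and 1, Serping1, was called. Among them Cpn2 was at -0.75 (above 0 in 3 alternatives), Clu, clusterin, at -4.16 and Cfi, factor I, at -1.57. Of 8 tested hepatocyte transcription factors 7 were lower and 0 called, with Cebpa at -3.44, Cebpb at -4.97 and Hnf4a, which the hepatocyte list also holds, at -3.91.

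The members were unlike one another in profile over the 24 libraries, which share the number of genes detected as a common factor. Fgb and Serpinc1 were the closest pair (Pearson r = 0.96), followed by Fgb and Vtn (0.83) and Serpinc1 and Vtn (0.81). F2 and Proc had r = 0.74. The fibrinogen chains were less alike, with 0.46 for Fga and Fgb, 0.21 for Fgb and Fgg and 0.02 for Fga and Fgg, and F9 had values between -0.28 (with Fga) and 0.12 with the other members.

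The 3 tested genes outside the set most alike in profile, by Pearson r over 24 libraries, were Ddrgk1 (0.88), Col5a3 (0.84) and Neat1 (0.78) for Fga. For Fgb they were Cyp2a12 (0.87), Tmbim6 (0.84) and Slc25a47 (0.83), and for Fgg Abcg5 (0.76), Xrcc1 (0.75) and Sos1 (0.75). F2 was closest to Klf15 (0.88), Utrn (0.84) and Ttr (0.84), and F9 to Senp5 (0.75), Rsrp1 (0.75) and Sugp2 (0.64). Proc was closest to Anp32a (0.90), Ncl (0.88) and Bhlhe40 (0.87), and Serpinc1 to Cyp2a12 (0.88), Tef (0.84) and Ttr (0.83). Vtn had Khk, Nucb1 and Slc39a14 (0.87 each). C8a had Letm1 (0.81), Trf (0.79) and Pcbp1 (0.78), and C1s1 had Tsc22d3, BC024386 and Tcf25 (0.85 each). By Spearman rank 9 of these 30 names were again among the closest 3.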

How the data were processed

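RNA-seq of 24 mouse liver libraries was analysed. Per the labels' protocols, an FFPE kit (for fixed, embedded tissue) gave the RNA, and pooled NuGen libraries underwent 75 bp single-end sequencing. The authors used TopHat, edgeR and the build mm9, per the submitters' processing notes. Their versions, the annotation and the counting are not given here in any source. The deposited values are on a natural log scale, read from the values as the natural log of normalised count + 1 after quantile normalization across libraries: the highest value was identical in 20 libraries, and in the 2 libraries with the most genes detected 942 and 655 values equalled (within 1e-09) the mean over 24 libraries of which 2 have a count of 1 and the rest 0. Such averaged steps are no whole reads. Division by the natural log of 2 put all values on a log2 scale. Depth is therefore unknown, and precision is the spread between libraries.

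Genes that reached a deposited value of 1 in 4 libraries or more entered limma 3.58.1 (R 4.3.3, mean-dependent prior) on 24 libraries with 1 mean per group, and TGA against WT over all classes on 4 against 4 means. For the latter the prior had 152 degrees of freedom and the residuals 6, so the pooled spread sets those SEs. Adjustment (Benjamini-Hochberg, 0.05) ran over every gene in the fit. The method was run on simulated, normally spread values with known differences. Their means were lifted away from the zeros that mark these libraries, so that check does not cover groups listed at zero. All 10 genes are described. Of each pathway list the 3 other genes with the highest mean and those called are named, with the 3 genes of closest profile for each member. Members and lists were chosen with earlier results of these data known. Promoters are RefSeq windows of GRCm38.p6. Alternatives tried were another added number, other filters, a constant prior, a detection covariate, a replicate block and left-out libraries.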

Additional observations from a re-analysis of the deposited data

Results flagged for a closer look

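In groups of 4 libraries, a value was singled out when its gap to the nearest other value passed Dixon's 95% limit for 4 values, as a share of the group's range, which chance does in about 1 of 20 groups of normally spread values. This happened in 17 of 60 groups of member values, 15 of them a single library above 0 beside 3 at 0, a form that many zeros produce readily.

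Number 1 of WT class 2 stood alone above 0 for Fgb (5.80), Fgg (1.13), Serpinc1 (5.99), Vtn (5.42) and C1s1 (4.19), and number 1 of WT class 4 for F2 (5.77), Proc (6.90) and C1s1 (1.84). These are the 2 libraries with the most genes above 0. In WT class 8, single libraries were above 0 for Fgg (4.67) and F2 (3.82), both number 2, Vtn (4.46, number 4) and C8a (4.66, number 1). In TGA class 4, number 3 was alone above 0 for Proc (4.85) and Vtn (3.05) and highest for Fga (8.46, next 7.96), and in TGA class 8 it was alone for Fgg (0.97). The lowest F2 value of TGA class 2 was 2.69 in number 1, against 6.60 or more in the other 3. Counts per library were singled out in 3 groups: number 3 of TGA class 4 held 6 members above 0 against 3 in each of the others, number 2 of WT class 8 held 4 against 3, and number 3 of TGA class 8 had 9096 genes above 0 against at most 2860.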

How the results depend on the processing

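For class 4 against class 2 in TGA, the count of members called was 1, beside 0.841% of tested genes. The count was 0 with 10 added before the log, with no filter on low values and with genes detected as a covariate. Without the 4 libraries with the most genes above 0 it was 4 (C1s1, Fgb, Proc and Serpinc1), beside 84 of 3939 genes (2.13%). When each number was left out it was 0 to 3, the 3 being without WT number 1, beside 66 of 4227 genes (1.56%). With a replicate block it was 2 (C1s1 and Serpinc1), beside 63 of 4875 genes (1.29%). For TGA against WT the count of 0 became 1 in class 8 and 1 over all classes without the 4 libraries with the most genes above 0. Beside these, 0.787% and 2.46% of 3939 genes were called. With a number left out the count was 0 to 1 in class 2 and 0 to 2 over all classes. The highest of each came without WT number 1, beside 1.61% and 2.37% of 4227 genes. The cause was not tested. The other 224 of 241 counts were within 1.5 times the reported ones. Apart from class 4 against class 2 in TGA every reported count was 0, so most of these set 0 beside 0. Of 931 refitted differences (63 genes and comparisons), 31 lost a call and 17 came under 0.05 where the reported value had not. The 17 include the unadjusted permutation of Fga. Another 13 changed sign, all of them far from the threshold. F9, TGA against WT in class 2, became -0.035 with the covariate and -0.252 without the 4 libraries, and ran from -0.82 to 0.78 when a number was left out. The same range was -0.084 to 0.91 for F9 in class 4 against 2 over both genotypes, -0.34 to 2.77 for C1s1 in class 8 against 2 of WT, and -1.38 to 0.28 for Proc in class 8 against 2 of TGA. From class 2 to 4 of TGA it was -2.32 to 0.40 for Kng1 and -2.62 to 0.32 for Cpn2, while the covariate gave 0.33 for Cpn2 and 0.0034 for Vkorc1l1. Over all genes the 41 called in TGA became 0 to 84, the 24 over all classes 5 to 100, the 15 over both genotypes 0 to 38, the 5 of class 2 TGA against WT 0 to 68, the 1 of class 4 0 to 10, the 1 of class 8 0 to 31 and the 1 of class 8 against 2 0 to 4. Same-numbered libraries of 1 genotype had correlated deviations over 0.1 in 2 of 24 pairs (median 0.03, highest 0.432), against 2 of 72 pairs of unlike number (highest 0.119). This does not tell whether same-numbered libraries share an animal, which the labels do not state. In libraries with few genes detected, a value of 0 cannot be told apart from a low level.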
